A study of Mus musculus with 24 samples.

Results

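Whole eyes of male CBA/N mice, an inbred laboratory strain, were profiled by RNA-seq, and the nuclear genes of oxidative phosphorylation are described here. Genes were taken by name: symbols beginning with Ndufa, Ndufb, Ndufc, Ndufs, Ndufv, Uqcr, Cox4, Cox5, Cox6, Cox7, Cox8 or Atp5, together with Sdha, Sdhb, Sdhc, Sdhd and Cyc1. Of the 19018 genes in the table, 92 had such a name and 91 of them reached the required mean of 1 CPM (counts scaled to a library total of 1e+06) over the 24 libraries. The gene below it, Cox7b2, averaged 0.0287 CPM, and the lowest genes above it, Cox6b2 and Ndufaf6, averaged 4.78 CPM each. All 91 genes passed the filter on low values of the statistical test. By role they comprised 36 subunits of complex I, 4 of complex II, 9 of complex III, 18 genes of complex IV, 15 subunits of complex V, and 9 genes whose products are not subunits. The table holds no gene of the mitochondrial genome, so the mitochondrially encoded subunits were not analysed here.

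Mice that were 10 weeks old when obtained were kept for 4 weeks under LW, a summer-like condition of 16 h light and 8 h dark at 27 °C, or under SC, a winter-like condition of 8 h light and 16 h dark at 10 °C. Eyes were collected at 2, 6 and 10 h and again at 14, 18 and 22 h, counted from midnight, with 2 eyes at each time under each condition, which gave 12 LW and 12 SC libraries. At 6 and 18 h the LW eyes were taken in the light and the SC eyes in the dark, at 10 and 14 h both in the light, and at 2 and 22 h both in darkness. Photoperiod and temperature differed together between the conditions and cannot be told apart, and nothing in the labels tells if eyes of a group came from separate mice, so that p-values reflect only how these eyes vary.

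Oxidative phosphorylation is carried out by protein complexes in the inner mitochondrial membrane. Complexes I and II take electrons from NADH and succinate, complex III passes them from ubiquinol to cytochrome c, complex IV hands them to oxygen, and complex V, the ATP synthase, uses the proton gradient that complexes I, III and IV build. Most subunits are encoded in the nucleus and imported. Photoreceptors are among the most oxygen-demanding cells of the body, and their inner segments are densely packed with mitochondria, whereas the lens has few and the eye muscles attached to the globe have many.

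Nuclear respiratory factor 1 (NRF1), the ETS-family factor GABP (also called NRF2) and YY1 are known to bind many promoters of these genes, and the letters they are known by were searched for on both strands of a 300-base promoter window, 250 bases before to 50 after each start (RefSeq, GRCm38.p6). A window was matched for 75 of the 91 members. The NRF1 letters, GCGCA and GCGC with any 1 base between them, were in 19 of them (25.3%, against 5.19% of 27025 promoters and 8.71% of the 14255 promoters of genes tested). The ETS letters CCGGAAG were in 18 (24%, against 9.93% and 15.5%), and the YY1 letters AANATGGCG in 11 (14.7%, against 2.76% and 4.41%). At least 1 of the 3 was in 41 members (54.7%, against 15.9% of all promoters and 25.2% of those tested), and no matches of different motifs overlapped. Of the 5 members that had a window and were lower under LW in the test given further on, 2 held any of the motifs. These are matches of letters in a window, not binding sites. The promoters of Ndufs3, with 2 ETS matches in its window of which 1 lies in the bases shown, of Sdha, with several NRF1 matches, of Cox6a1, which carries both, and of the muscle isoform Cox8b, which carries none, are shown to let these arrangements be read, each as the 250 bases before the start, 5′ to 3′ on the gene's strand, and of Atp5b the stretch around its YY1 match is shown. Capitals mark the matches, and a motif on the other strand reads as its reverse complement (CTTCCGG for ETS).
Ndufs3 (chr2:90904722-90904971, minus strand): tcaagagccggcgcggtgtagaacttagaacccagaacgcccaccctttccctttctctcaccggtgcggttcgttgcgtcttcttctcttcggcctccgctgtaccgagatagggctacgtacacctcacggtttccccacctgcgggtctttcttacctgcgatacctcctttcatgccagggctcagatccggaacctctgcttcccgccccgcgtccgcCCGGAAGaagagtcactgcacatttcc
Cox6a1 (chr5:115348959-115349208, minus strand): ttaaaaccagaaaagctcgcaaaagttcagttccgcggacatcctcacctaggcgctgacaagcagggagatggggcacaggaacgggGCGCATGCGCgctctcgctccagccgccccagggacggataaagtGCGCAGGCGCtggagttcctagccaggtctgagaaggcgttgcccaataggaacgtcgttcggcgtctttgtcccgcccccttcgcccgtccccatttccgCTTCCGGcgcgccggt
Sdha (chr13:74350241-74350490, minus strand): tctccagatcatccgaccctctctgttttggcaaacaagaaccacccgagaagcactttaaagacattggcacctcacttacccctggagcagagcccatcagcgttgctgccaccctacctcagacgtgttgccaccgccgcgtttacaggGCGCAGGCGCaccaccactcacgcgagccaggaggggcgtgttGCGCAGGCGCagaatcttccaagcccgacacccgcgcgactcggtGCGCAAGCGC
Cox8b (chr7:140900447-140900696, minus strand): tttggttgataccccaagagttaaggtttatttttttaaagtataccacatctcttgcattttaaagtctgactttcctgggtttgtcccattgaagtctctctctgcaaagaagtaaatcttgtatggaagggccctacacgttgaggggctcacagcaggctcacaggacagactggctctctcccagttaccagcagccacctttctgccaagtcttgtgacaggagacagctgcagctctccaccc
Atp5b (chr10:128083313-128083341, plus strand): acccggattcCGCCATGTTgagtcttgtg

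The libraries were of similar depth, with totals of 19543401 to 28859071 expected counts in LW eyes (median 25057540) and of 20164885 to 28447184 in SC eyes (median 24449062), and with scaling factors between 0.982 and 1.02. Rod markers took between 33037 and 41017 CPM in LW eyes and between 32715 and 38009 CPM in SC eyes, with 3 of 6 rod markers higher under LW, and heart muscle markers at most 4.77 CPM in LW eyes and 5.09 CPM in SC eyes. Liver markers reached at most 0.589 CPM in LW eyes, but 98.9 CPM in SC 6 h replicate 2 and 14.6 CPM in SC 10 h replicate 2, and the results are also given without those libraries. Marker lists of several eye tissues differed with season. Of the lens markers 6 of 7 were higher under LW (summed level 32889 to 37596 CPM in LW eyes, 29720 to 35871 CPM in SC eyes), of the corneal and conjunctival epithelium markers 6 of 7 were lower (8769 to 12785 CPM in LW eyes, 11665 to 13952 CPM in SC eyes), and of the markers of the retinal pigment epithelium 3 of 5 were lower (1018 to 1202 CPM in LW eyes, 1134 to 1302 CPM in SC eyes). Of the 6 cone markers 3 were lower and 1 higher (580 to 678 CPM in LW eyes, 565 to 676 CPM in SC eyes), and of the 4 sclera markers 2 were higher (median 0.41; 1143 to 1879 CPM in LW eyes, 658 to 1832 CPM in SC eyes). In whole eyes, fewer cells of a type and less RNA per cell cannot be told apart, and the part of tissue composition in the differences below was not tested.

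The members together took between 0.772% and 0.843% of the counts in LW eyes (mean 0.810%) and between 0.813% and 0.885% in SC eyes (mean 0.838%). Their levels covered a wide range, from Atp5b at a mean of 1062 CPM, Atp5a1 at 727 CPM and Sdha at 270 CPM down to 4.78 CPM. Per length of transcript (CPM per kilobase, with lengths averaged over annotated transcripts and therefore approximate), the median level was 149 for complex V, 107 for complex III, 101 for complex IV, 63.0 for complex I, 59.9 for complex II and 8.99 for the genes that are not subunits. Atp5b at 554, Cox4i1 at 311 and Cox8a at 307 CPM per kilobase stood highest.

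Seasonal differences of the members were small and lay mostly below 0, the side of lower levels under LW. Expected counts scaled to a common depth were compared on the scale log2(scaled count + 1) with limma, averaging LW minus SC over the 6 times, and a gene was called at a Benjamini-Hochberg adjusted p under 0.05 over the 18233 genes tested. By this test 11 of the 91 members (12.1%) differed with season, against 9.49% of all genes tested and 11.3% of those with a mean of at least 1 CPM, so the share of members called was close to the background. With voom weights limma called the same 11 members. The directions were unequal: 10 members (11%) were lower under LW, against 4.65% of all genes and 5.56% of those of at least 1 CPM, and 1 member (1.1%) was higher, against 4.84% and 5.75%. The median log2 difference of the members was -0.035, against -0.00041 over all genes, and 72 of the 91 (79.1%) lay below 0, against 50.1% of all genes. Under the 3 other scalings the median lay between -0.036 and -0.039. An unadjusted p under 0.05 was reached by 33 members (36.3%, against 25.0% of all genes and 28.7% of those of at least 1 CPM). At all 6 times 16 members (17.6%) lay below 0 and 2 (2.20%) above it, against 4.40% and 4.48% of all genes. Except for Ndufa4l2, the called differences were under 10% in size.

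**Figure D1:**
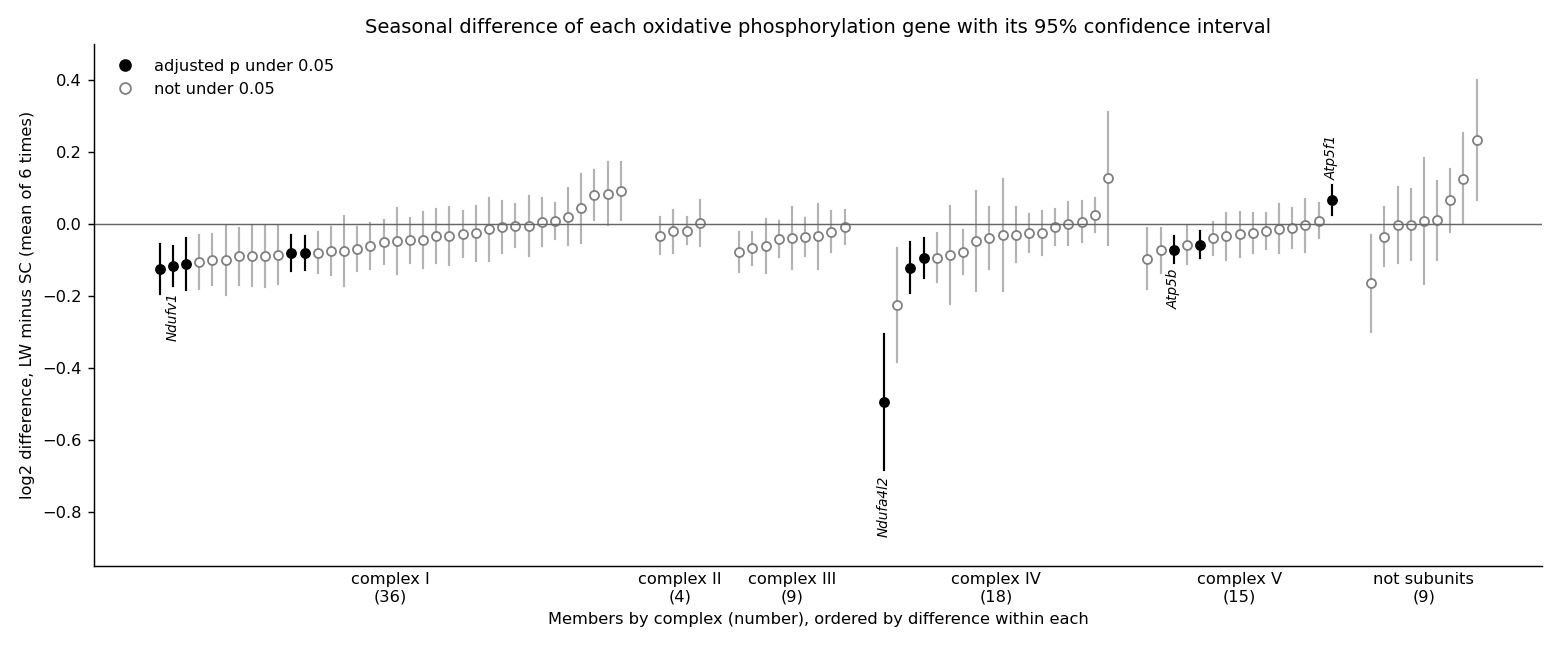
Log2 difference of LW minus SC (mean of 6 times, vertical axis) of each of the 91 members, grouped by complex and ordered by size within each; bars are 95% confidence intervals and filled points have an adjusted p under 0.05, and names are given for the higher member and for those called with any 1 library left out. Most points lie slightly below 0, with 10 filled below it, 1 (Atp5f1) above it, and Ndufa4l2 far lower than the rest at -0.49.

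Differences below 0 were spread over the complexes. In complex I, 5 of 36 members were lower and none higher (median -0.049, 29 below 0), in complex IV 3 of 18 were lower and none higher (median -0.035, 14 below 0), and in complex V 2 of 15 were lower and 1 higher (median -0.029, 13 below 0). No member of complex III (9 genes, median -0.038, all 9 below 0) or of complex II (4 genes, median -0.020, 3 below 0) passed the test, nor did any of the 9 genes that are not subunits (median 0.0079, 4 below 0). An unadjusted p under 0.05 was reached by 2 members of complex III, 0 of complex II and 2 of the genes that are not subunits, and limma with voom weights called none either. Of all genes tested 4.65% were lower and 4.84% higher under LW, and of those of at least 1 CPM 5.56% and 5.75%. At such shares, groups of 4 or 9 genes would hold few calls or none. The differences between complexes were not tested.

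The number of calls changed when single eyes were left out, among the members and among all genes. With 1 library left out at a time, between 3 and 22 members were called, and between 1196 and 2205 of all genes, against 1730 with every library. The members' count was 3 without LW 22 h replicate 2 (1271 of all genes) or without SC 14 h replicate 1 (1350 of all genes), 4 without SC 22 h replicate 2, 5 without LW 14 h replicate 1 or SC 6 h replicate 1, and 6 without LW 10 h replicate 1 or SC 2 h replicate 1. It was 7 without either replicate of LW at 2 h, and likewise without replicate 2 of LW at 10 h or 18 h or replicate 2 of SC at 10 h or 18 h. It was 20 without LW 18 h replicate 1 and 22 without LW 22 h replicate 1 (2131 and 2205 of all genes), and between 8 and 16 without any other library. The median of the members stayed below 0 in all 24 of these fits (-0.05 to -0.020). Without both libraries that held liver transcripts 9 members were called, 8 of them lower under LW. Of the 11 members, Ndufa4l2, Ndufv1 and Atp5b were called in all 24 fits.

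Complex I has 7 core subunits encoded in the nucleus, which carry the flavin and the iron-sulphur clusters that lead electrons from NADH to ubiquinone. Of these, 6 of 7 lay below 0 and 4 did so at all 6 times. Ndufv1 (chr19:4007499-4012755), which encodes the subunit that binds NADH and the flavin, had scaled counts of 3011 to 3617 (median 3358) in LW eyes and of 3447 to 3896 (median 3549) in SC eyes. In 8 of the 12 LW eyes it was below the lowest SC eye and in 4 of the 12 SC eyes above the highest LW eye, and its mean was lower under LW at all 6 times. Ndufv1 was lower under LW, by -7.86% (log2 -0.12, SE 0.027, adjusted p 0.00765 by limma; exact permutation test within times, two-sided, p 0.0006) and kept its call in all 39 alternatives, with an adjusted p of at most 0.0419.

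Ndufs3 (chr2:90894627-90904721), a core subunit near the ubiquinone site, was among the 18 members with ETS letters in the promoter window. It had 1375 to 1589 scaled counts (median 1497) in LW eyes and 1484 to 1765 (median 1544) in SC eyes. It was lower under LW by a log2 of -0.082 (SE 0.024, adjusted p 0.0361 by limma), the means were lower at all 6 times, and the call held in 12 of the 24 fits that left out 1 library (adjusted p 0.0181 to 0.0874). The groups overlapped, with 5 LW eyes below the lowest SC eye. The core subunit Ndufs1, the largest of the core subunits made in the nucleus, showed no such shift, at 2381 to 2690 scaled counts (median 2557) in LW eyes and 2372 to 2753 (median 2544) in SC eyes (log2 0.0083, 95% confidence interval -0.042 to 0.059).

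The 29 accessory subunits surround the core of complex I and are needed for its assembly and stability. Their median difference was -0.046, and 2 of them were lower under LW. Ndufa13 (chr8:69894163-69902558), also known as GRIM-19, had 1652 to 1940 scaled counts (median 1762) in LW eyes and 1746 to 2193 (median 1938) in SC eyes, so that 5 LW eyes lay below every SC eye and 6 SC eyes above every LW eye. It was lower under LW at all 6 times, by a log2 of -0.12 on average (SE 0.034, adjusted p 0.0215 by limma), and the call was lost without LW 10 h replicate 2 (0.0546), without LW 22 h replicate 2 (0.0509) and without SC 14 h replicate 1 (0.0523). The call was also lost without the 2 h eyes (0.0561) or the 14 h eyes (0.0718). Ndufb9 (chr15:58933801-58939516), a subunit of the membrane arm, had 1631 to 1986 scaled counts (median 1829) in LW eyes and 1844 to 2224 (median 1957) in SC eyes. Its difference of -0.11 (SE 0.034, adjusted p 0.0435 by limma) held in only 8 of the 24 fits that left out 1 library (adjusted p 0.0132 to 0.103), although 7 LW eyes lay below every SC eye. The accessory subunits with the smallest p-values among those above 0, Ndufc1 (log2 0.091, 95% confidence interval 0.011 to 0.17, adjusted p 0.139) and Ndufs5 (0.080, 0.010 to 0.15, adjusted p 0.137), did not pass the test by limma.

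Complex II, which is also the succinate dehydrogenase of the tricarboxylic acid cycle, had the narrowest range of differences, from -0.033 to 0.0021. Sdha, the flavoprotein with 3 NRF1 matches in its promoter, had 6264 to 6851 scaled counts (median 6460) in LW eyes and 6213 to 6819 (median 6585) in SC eyes, and the groups overlapped almost entirely. Its difference was -0.019, with a 95% confidence interval of -0.057 to 0.020. The iron-sulphur subunit Sdhb had the smallest p of the complex and a difference of -0.033 (95% confidence interval -0.085 to 0.020, adjusted p 0.462 by limma).

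Complex III had all 9 differences below 0 and no call. Uqcrc1, a core protein of the complex, had 4120 to 4504 scaled counts (median 4287) in LW eyes and 4280 to 5026 (median 4486) in SC eyes, and its mean was below that of SC at all 6 times. The difference of -0.068 (SE 0.022) had an adjusted p of 0.0514 by limma, just outside the threshold, and Uqcrc1 was called in 11 of the 39 alternatives. Uqcrh, the hinge protein that helps cytochrome c bind, had a difference of -0.078 (adjusted p 0.0691), and the other core protein Uqcrc2 one of -0.0084 (95% confidence interval -0.055 to 0.039).

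In complex IV, the cytochrome c oxidase, the widely expressed subunit genes Cox5b and Cox4i1 were lower under LW, and so was Ndufa4l2, described further on. Cox5b (chr1:36691487-36693388), a zinc-binding subunit on the matrix side, had 1576 to 1838 scaled counts (median 1742) in LW eyes and 1567 to 2058 (median 1897) in SC eyes. All 12 LW eyes lay below the SC median and 9 of the 12 SC eyes lay above every LW eye, while the lowest of all eyes was SC 6 h replicate 2, a library that held liver transcripts. Cox5b was lower under LW, by -8.09% (log2 -0.12, SE 0.034, adjusted p 0.0262 by limma), and was called in 13 of the 24 fits that left out 1 library (adjusted p 0.00788 to 0.0636). Cox4i1 (chr8:120668225-120674209), the widely expressed form of the subunit that regulates the enzyme by ATP, had 5207 to 5907 scaled counts (median 5426) in LW eyes and 5391 to 6520 (median 5859) in SC eyes. It was lower under LW at all 6 times, by -6.36% (log2 -0.095, SE 0.027, adjusted p 0.0266 by limma), with 11 LW eyes below the SC median and a call in 15 of the 24 fits (adjusted p 0.00626 to 0.0626).

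Ndufa4l2 (chr10:127509274-127517154) showed by far the largest difference of the members. Its product is related to Ndufa4, a subunit of complex IV that was first assigned to complex I, and the gene is known as a target of the hypoxia-inducible factor HIF-1 and as a transcript of pericytes. The 2 LW eyes had 146 and 113 scaled counts at 2 h, 181 and 167 at 6 h, 114 and 120 at 10 h, 105 and 119 at 14 h, 112 and 71.5 at 18 h, and 94.6 and 131 at 22 h. The 2 SC eyes had 223 and 172 at 2 h, 193 and 162 at 6 h, 195 and 147 at 10 h, 184 and 126 at 14 h, 149 and 150 at 18 h, and 164 and 183 at 22 h. Both LW eyes lay below both SC eyes at every time except 6 h, when the conditions overlapped, and the lowest eye of all was an LW eye at 18 h. Over all times 8 LW eyes were below the lowest SC eye and 5 SC eyes above the highest LW eye. The mean was 123 ± 30.1 scaled counts under LW and 171 ± 26.7 under SC (SD, n = 12 each), and it was lower under LW (log2 -0.49, SE 0.091, 95% confidence interval -0.68 to -0.30, adjusted p 0.00134 by limma; exact permutation test, two-sided, p 0.000171). At single times the log2 difference lay between -0.44 and -0.73 except for that of 6 h, which was -0.02, and the interaction of season and time had an adjusted p of 0.630 by limma. Ndufa4l2 was called in all 39 alternatives (adjusted p 0.000379 to 0.00757).

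Ndufa4l2 was a low gene at a mean of 6.06 CPM. Lists of vessel cell markers and of other HIF targets, chosen after its result was seen, are given beside it. Of 8 pericyte markers none differed with season by limma, with or without voom weights, and 1 had an unadjusted p under 0.05. Their median was -0.024, and Kcnj8 had the smallest adjusted p (-0.19, 0.0968). They summed to 640 to 789 CPM in LW eyes and 672 to 765 CPM in SC eyes. Vtn alone averaged 399 CPM, so the sum mostly reflects that gene. Of 4 vascular smooth muscle markers 3 were higher under LW (Tagln 0.29, Cnn1 0.41 and Acta2 0.14), and Myh11 was not called (0.015, adjusted p 0.771 by limma). Of 15 genes that HIF is known to induce in low oxygen, 4 were lower under LW and none higher, and 13 lay below 0 (median -0.057). Among all genes tested, 4.65% were lower under LW, 4.84% were higher, and 50.1% lay below 0. These 4 were Slc16a3, which exports lactate (-0.23, SE 0.035, adjusted p 0.000205), Slc2a1, which imports glucose (-0.094, SE 0.020, adjusted p 0.0043), the angiogenic factor Vegfa (-0.11, SE 0.024, adjusted p 0.00556) and the carbonic anhydrase Car9 (-0.41, SE 0.11, adjusted p 0.0164). The interaction of season and time was called for Slc16a3 (adjusted p 5.13e-06) and Slc2a1 (0.00339) and not for Vegfa (0.0545) or Car9 (0.841). The summed level of the 15 genes ran from 1478 to 1943 CPM in LW eyes and from 1543 to 1919 CPM in SC eyes. The part of these genes' regulator or of vessel cells in the Ndufa4l2 difference was not tested.

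Complex IV has further subunits with a tissue form, most of them found in heart and skeletal muscle, beside a widely expressed partner. None of these muscle and tissue forms other than Ndufa4l2 passed the test. Cox7a1, the muscle form of subunit 7a, had 124 to 211 scaled counts (median 181) in LW eyes and 184 to 224 (median 210) in SC eyes, and 7 LW eyes lay below the lowest SC eye. Its difference was -0.23 (SE 0.077, 95% confidence interval -0.39 to -0.067, adjusted p 0.0659 by limma), and it was called without LW 2 h replicate 2 (0.0429), without LW 6 h replicate 1 (0.00893) and without LW 22 h replicate 1 (0.0292). The differences of the other forms were -0.049 for Cox6a2 and -0.087 for Cox8b, both muscle forms, -0.030 for the lung form Cox4i2, and 0.13 for the testis form Cox6b2, with adjusted p-values between 0.405 and 0.848 by limma. Of the 10 markers of skeletal and eye muscle only the myosin Myh4 passed the test (-0.35, adjusted p 0.0226), 5 had an unadjusted p under 0.05, 8 lay below 0 with a median of -0.14 over the list, and the list summed to 1992 to 3271 CPM in LW eyes and to 2291 to 3630 CPM in SC eyes. Of the partners, Cox6a1, with NRF1 and ETS matches in its promoter, had a difference of -0.094 (adjusted p 0.0711), Cox6b1 one of -0.077 (0.101), Cox7a2 one of -0.030 (0.667), Cox8a one of 0.0061 (0.921) and Ndufa4 one of 0.024 (0.566).

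Per transcript length, the widely expressed form made up most of each pair. Of isoform plus partner, Cox6a2 took 17.6% ± 2.06 in LW eyes and 17.2% ± 2.34 in SC eyes, and Cox7a1 14.9% ± 1.74 in LW eyes and 16.6% ± 1.30 in SC eyes (SD, n = 12 each in all pairs). Cox8b took 12.7% ± 1.27 in LW eyes and 13.4% ± 1.43 in SC eyes, Cox6b2 6.50% ± 0.755 in LW eyes and 5.71% ± 0.790 in SC eyes, and Cox4i2 4.38% ± 0.355 in LW eyes and 4.22% ± 0.627 in SC eyes. Ndufa4l2 took 2.06% ± 0.474 in LW eyes and 2.89% ± 0.408 in SC eyes, with ranges of 1.29% to 3.01% in LW eyes and 2.24% to 3.76% in SC eyes. The conditions overlapped in every pair. No test was run on these shares.

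**Figure D2:**
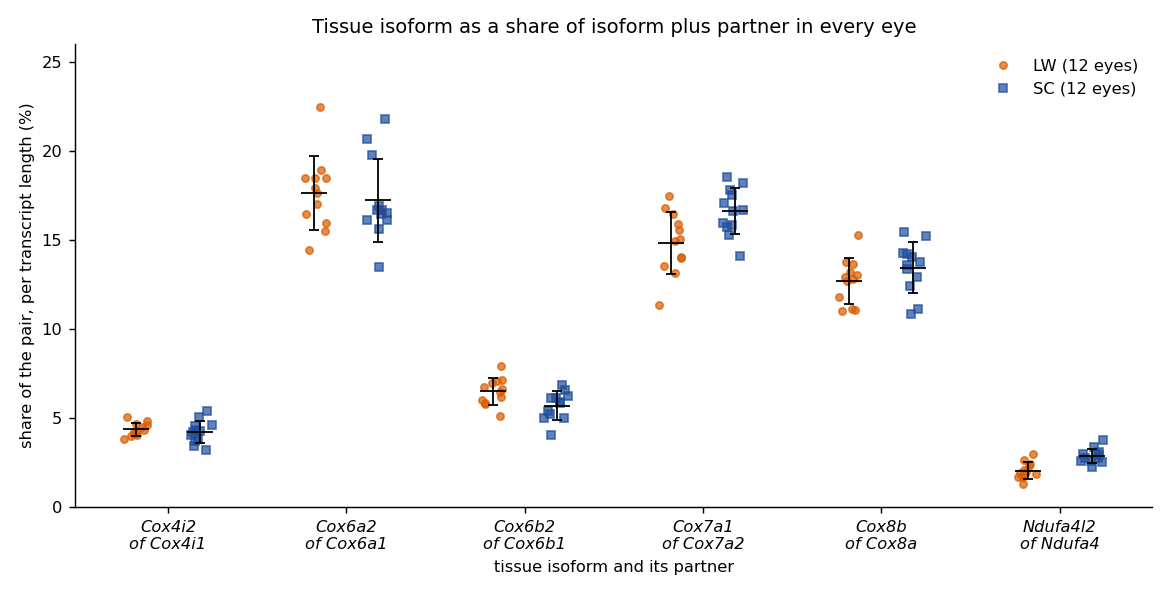
Share of each tissue isoform in the sum of isoform and partner, per transcript length (vertical axis, %), in every LW eye (circles) and SC eye (squares); black bars are mean and SD, n = 12 each. The shares of LW and SC eyes overlap in all 6 pairs, and the Ndufa4l2 share averaged 2.06% in LW eyes and 2.89% in SC eyes.

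In complex V, both main subunits of the catalytic F1 head were lower under LW. Atp5b (chr10:128083307-128090388), the catalytic beta subunit and the most abundant member, with the YY1 letters beside its start, had 23100 to 27205 scaled counts (median 25183) in LW eyes and 24846 to 28033 (median 26291) in SC eyes. In 11 LW eyes it lay below the SC median, with lower means at all 6 times. Atp5b was lower under LW, by -4.84% (log2 -0.072, SE 0.018, adjusted p 0.0147 by limma; exact permutation test, two-sided, p 0.000857). It was called in every fit that left out 1 library, but not without the 14 h eyes (adjusted p 0.0544) or the 18 h eyes (0.0916). Atp5a1, the alpha subunit, had 16509 to 18084 scaled counts (median 17129) in LW eyes and 17538 to 18840 (median 17850) in SC eyes, and 8 LW eyes lay below the lowest SC eye. Its difference of -0.058 (SE 0.018, adjusted p 0.0446 by limma) was called in 7 of the 24 fits that left out 1 library (0.0201 to 0.105).

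Atp5f1 (chr3:105942698-105959263), which encodes subunit b of the peripheral stalk that holds the F1 head still, was the only member called higher under LW. It had 3845 to 4627 scaled counts (median 4276) in LW eyes and 3786 to 4207 (median 4091) in SC eyes, and 7 LW eyes lay above every SC eye. Its mean was higher under LW at all 6 times, by 4.66% on average (log2 0.066, SE 0.020, 95% confidence interval 0.024 to 0.11, adjusted p 0.0401 by limma; exact permutation test, two-sided, p 0.000557). Atp5f1 was called in 10 of the 24 fits that left out 1 library (adjusted p 0.0256 to 0.0876), and the call was lost with scaling to column totals. Among the other stalk subunits, Atp5o had a difference of -0.074 (adjusted p 0.131), Atp5h one of -0.059 (0.155) and Atp5j one of -0.020 (0.669). The 3 genes of the c ring, Atp5g1, Atp5g2 and Atp5g3, which encode the same mature protein, had differences of -0.029, -0.035 and 0.0087.

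The genes whose products are not subunits were 8 assembly factors of complex I and Atp5s. None was called for season. Ndufaf4, an early assembly factor, had 407 to 777 scaled counts (median 551) in LW eyes and 382 to 589 (median 481) in SC eyes. Its difference of 0.23 (SE 0.079, 95% confidence interval 0.065 to 0.40) had an adjusted p of 0.0752, and Ndufaf4 passed the threshold without LW 2 h replicate 1 (0.0408), without LW 6 h replicate 2 (0.0251), without LW 18 h replicate 1 (0.0489), without LW 22 h replicate 1 (0.0275) and without SC 6 h replicate 2 (0.0445). Ndufaf2, which joins complex I late in assembly, lay on the other side at -0.16 (adjusted p 0.112).

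The complexes stood high or low together in part of the libraries. For each library the deviation of every member from its own mean over the 24 libraries was averaged by complex. All 5 complexes lay on the same side of 0 in 10 of the 24 libraries: below it in 5 LW libraries and 1 SC library, and above it in 2 LW and 2 SC libraries. The mean over all members ran from -0.080 to 0.048 (median -0.017) in LW libraries and from -0.040 to 0.11 (median 0.011) in SC libraries, and these ranges overlapped widely. SC 14 h replicate 1 stood highest over all members and in every complex but IV, with complex I at 0.13, complex II at 0.098, complex III at 0.12 and complex V at 0.12. In complex IV it stood at 0.12, below SC 22 h replicate 2 at 0.13. Complex I was lowest in LW 2 h replicate 1 and LW 22 h replicate 2 (-0.084 each) and in LW 18 h replicate 2 (-0.077). LW 18 h replicate 1, the other eye of that group, stood at 0.067, so eyes collected together could lie at both ends of the range.

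Genes for cytosolic ribosomal proteins, short and abundant transcripts outside the mitochondrion, moved with the members in many libraries but not in all. Their mean deviation (81 genes of at least 1 CPM) was 0.16 in SC 14 h replicate 1, -0.093 in LW 2 h replicate 1, -0.12 in LW 2 h replicate 2, -0.11 in LW 18 h replicate 2, -0.098 in LW 22 h replicate 2 and 0.095 in LW 18 h replicate 1. It had the sign of the members' mean in 19 of the 24 libraries. In SC 10 h replicate 2 it was 0.020, whereas the members' mean was -0.040. For LW minus SC at 6 h, 27 of the 83 ribosomal protein genes lay below 0 (median 0.025), beside 53 of the 91 members (median -0.012). At 2 h 77 of the 83 did (median -0.12), beside 74 members (median -0.071). At 22 h 81 of the 83 did (median -0.080), beside 68 members (median -0.054). At all 6 times 16 of the 83 (19.3%) lay below 0, beside 16 members (17.6%). Of 83 ribosomal protein genes 1 was higher and 6 were lower under LW, with a median of -0.054 and 80 below 0, beside the members' median of -0.035. The part of whatever these genes and the members share in the seasonal shift in the members' shift was not tested.

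**Figure D3:**
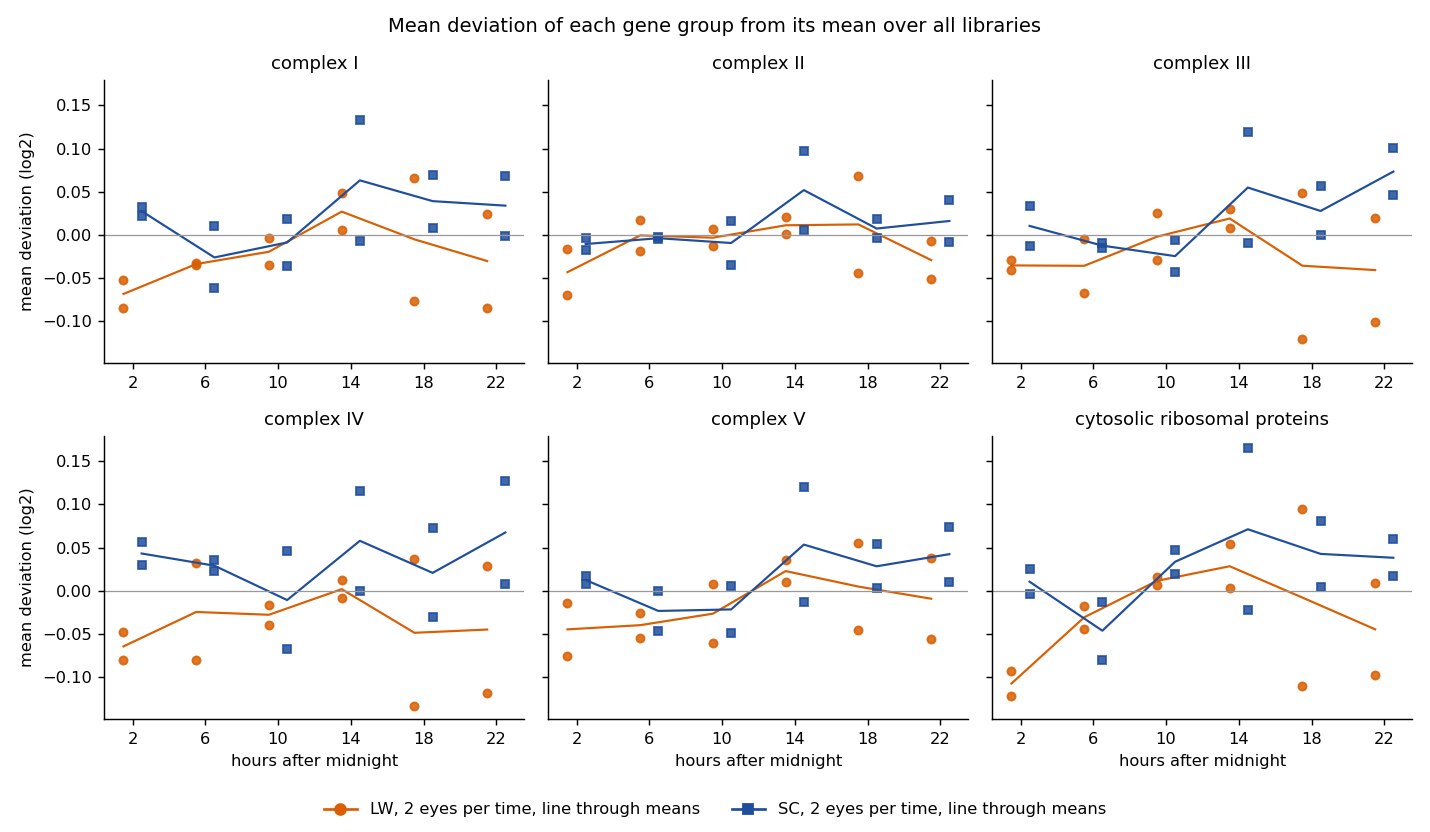
Mean log2 deviation of the subunits of each complex, and of cytosolic ribosomal protein genes, from their means over all 24 libraries (vertical axis), against hours after midnight; circles are LW eyes and squares SC eyes, 2 per time, with lines through the means. Several high and low eyes recur across the 6 panels, and an SC eye at 14 h stood at 0.13 in complex I and 0.16 in the ribosomal protein genes. The order of eyes differs between panels, and the highest eye in complex IV was an SC eye at 22 h (0.13).

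At single times few members could be told apart between seasons. At 2 h, when it was dark under both conditions, 1 of 91 members was lower under LW and none higher (3.64% of all genes were called), 74 lay below 0 and the median was -0.071. An unadjusted p under 0.05 was reached there by 20 members (22.0%, against 18.1% of all genes and 20.6% of those of at least 1 CPM), 19 of them below 0, and the medians of complexes I and IV were -0.12 and -0.13. That member was Ndufb7, an accessory subunit on the intermembrane-space side of complex I, with 1049 and 1012 scaled counts in the LW eyes at 2 h and 1258 and 1219 in the SC eyes. Ndufb7 differed by -0.27 (SE 0.075, adjusted p 0.0490 by limma) and was called in 11 of the 24 fits that left out 1 library, and in 20 of all 38 alternatives, with adjusted p-values of 0.125 and 0.287 without LW 2 h replicates 1 and 2 and of 0.264 and 0.151 without SC 2 h replicates 1 and 2. The fit with voom weights called no member at 2 h.

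At the other 5 times no member passed the test by limma, and none by limma with voom weights. An unadjusted p under 0.05 was reached by 5 members at 6 h (5.49%, against 17.3% of all genes), by 3 at 10 h (3.30%, against 11.7%), by 9 at 14 h (9.89%, against 8.56%), by 12 at 18 h (13.2%, against 14.6%) and by 9 at 22 h (9.89%, against 15.3%). After adjustment, the share of all genes called was 2.8% at the 6 h time, 0.51% for 10 h eyes, 0.176% for 14 h eyes, 1.56% for those of 18 h and 2.91% for those of 22 h. At 6 h the median of the members was -0.012 with 53 below 0, at 10 h it was 0.0090 with 43 below 0, at 14 h -0.030 with 59, at 18 h -0.047 with 60 and at 22 h -0.054 with 68. The medians were farthest below 0 at 2 and 22 h, in the dark of both conditions, and the median was above 0 at 10 h only. Cytosolic ribosomal protein genes also had their lowest medians at 2 h (-0.12) and 22 h (-0.080). The LW eyes at 22 h lay apart, with a mean deviation over all members of 0.019 in replicate 1 and -0.074 in replicate 2. Of 91 members none passed the interaction test of season and time (4.98% of all genes did), 3 had an unadjusted p under 0.05 (3.30%, against 18.5% of all genes), and limma with voom weights called none.

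**Figure D4:**
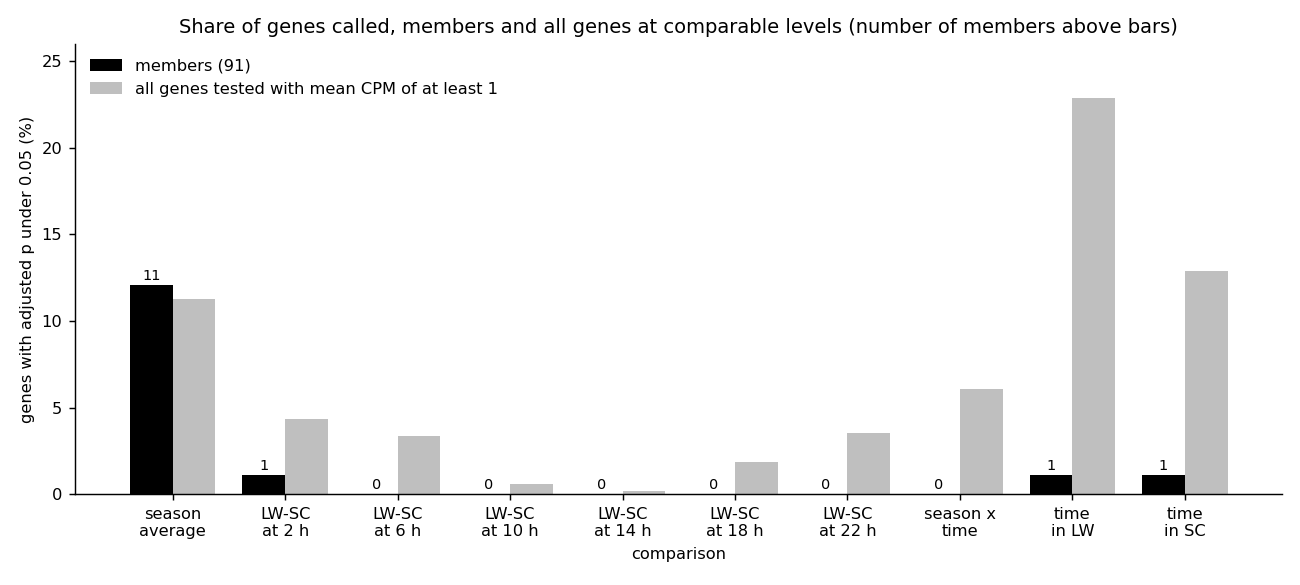
Share of genes with an adjusted p under 0.05 by limma (vertical axis, %) among the 91 members (black, with the number called) and among all genes tested with a mean of at least 1 CPM (grey), for the season average, each time, the interaction, and time of day within LW and within SC. The members reach 12.1% for the season average, beside 11.3% of those genes, and 1 or 0 genes elsewhere.

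Over the day the members varied little. The largest minus the smallest of the 6 time means had a median of 0.16 on the log2 scale under LW and 0.15 under SC, against 0.36 under LW and 0.31 under SC for all genes tested, and 0.30 under LW and 0.25 under SC for those of at least 1 CPM. A small range was not particular to the members. It was 0.15 under LW and 0.13 under SC for genes of the tricarboxylic acid cycle and pyruvate dehydrogenase. For cytosolic ribosomal protein genes it was 0.15 and 0.14, and for genes of the mitochondrial ribosome 0.22 and 0.20. Within LW, 1 of 91 members varied with time of day by limma (19% of all genes did), and 9 had an unadjusted p under 0.05 (9.89%, against 32.9% of all genes). Within SC, 1 of 91 varied (10.7% of all genes), and 7 had an unadjusted p under 0.05 (7.69%, against 24.7% of all genes).

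The member that varied within SC was Cox5a, a subunit on the matrix side of complex IV. The 2 LW eyes had 2169 and 2259 scaled counts at 2 h, 2169 and 2235 at 6 h, 2306 and 2240 at 10 h, 2317 and 2305 at 14 h, 2175 and 2202 at 18 h, and 2395 and 2349 at 22 h. The 2 SC eyes had 1959 and 2142 at 2 h, 2136 and 2380 at 6 h, 2061 and 2165 at 10 h, 2534 and 2530 at 14 h, 2368 and 2625 at 18 h, and 2346 and 2474 at 22 h. Under LW the range of the time means was 0.12 on the log2 scale, whereas under SC, with eyes high from 14 to 22 h and low at 2 and 10 h, it was 0.31 (adjusted p 0.00412 by limma). Cox5a was called within SC in all 33 alternatives, and its interaction of season and time had an adjusted p of 0.131.

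The member that varied within LW was Ndufaf3, an assembly factor of complex I. The 2 LW eyes had 327 and 359 scaled counts at 2 h, 442 and 409 at 6 h, 455 and 532 at 10 h, 429 and 437 at 14 h, 471 and 376 at 18 h, and 434 and 391 at 22 h. The 2 SC eyes had 440 and 396 at 2 h, 445 and 449 at 6 h, 463 and 448 at 10 h, 478 and 411 at 14 h, 364 and 385 at 18 h, and 364 and 410 at 22 h. Under LW it was lowest at 2 h and highest at 10 h, with a range of 0.52 on the log2 scale (adjusted p 0.0448 by limma). That call was made in 8 of the 24 fits that left out 1 library (adjusted p 0.019 to 0.243, highest without LW 2 h replicate 1 and, at 0.18, without LW 10 h replicate 2), was lost with the replicate block (0.0540), and limma with voom weights called no member within LW.

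**Figure D5:**
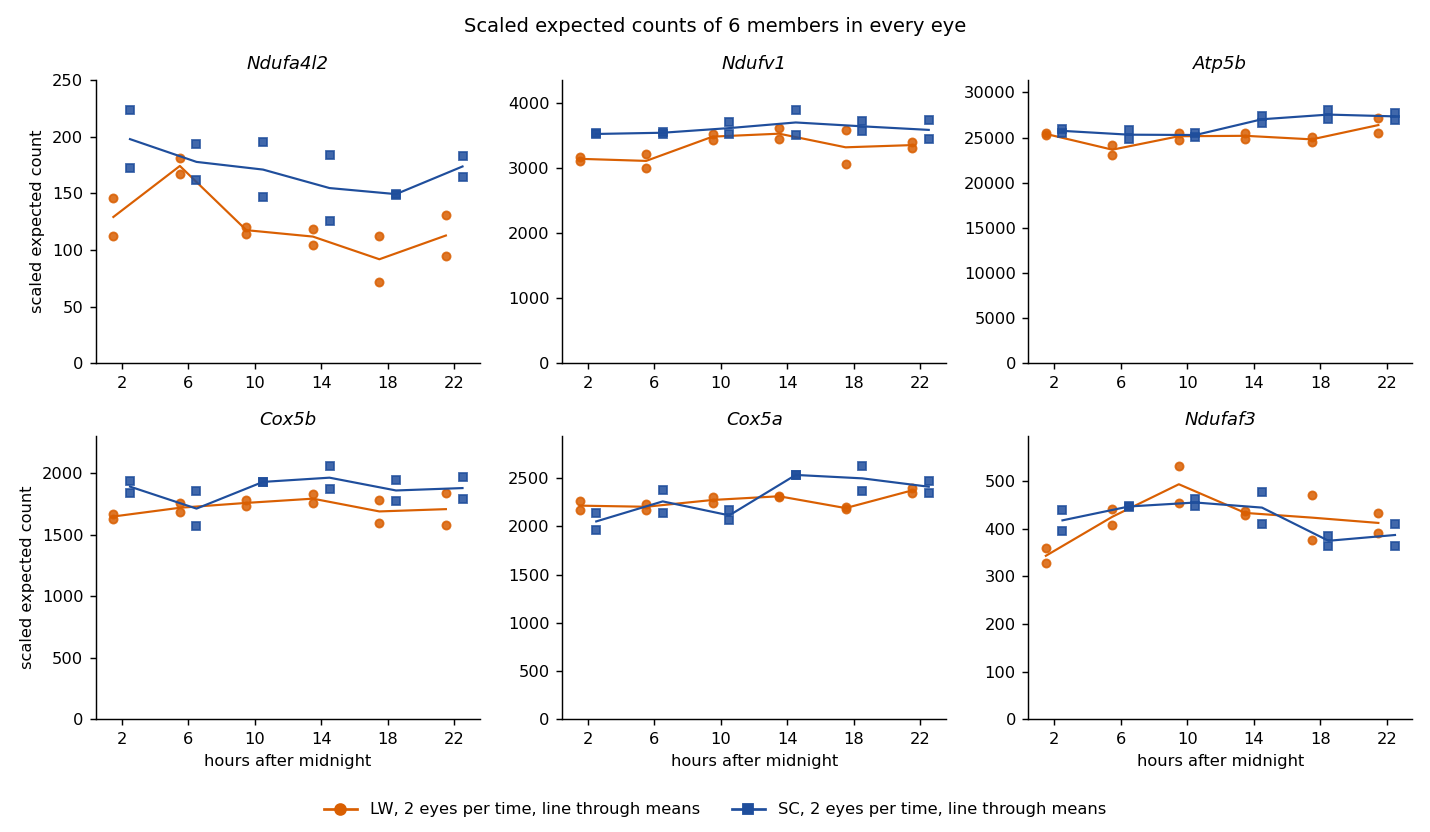
Scaled expected counts (vertical axis, from 0) of Ndufa4l2, Ndufv1, Atp5b, Cox5b, Cox5a and Ndufaf3 in every eye against hours after midnight; circles are LW eyes and squares SC eyes, 2 per time, with lines through the means. Ndufa4l2 lies lower under LW at every time but 6 h, where the conditions overlap, Ndufv1 and Atp5b lie slightly lower throughout, and Cox5a is high from 14 to 22 h under SC.

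Other nuclear genes of the pathway were given by lists. Their counts stand beside the 9.49% of all genes tested, and 11.3% of those of at least 1 CPM, that were called for season. By limma, with or without voom weights, no gene was called for season among the 23 assembly factors of complex IV (median -0.0078, 1 with an unadjusted p under 0.05), the 14 assembly factors of complexes II, III and V (0.015, 1 such gene), the 11 genes of coenzyme Q synthesis (0.010, 1 such gene) and the 16 genes of the tricarboxylic acid cycle and pyruvate dehydrogenase (0.00067, 3 such genes). Among 9 genes of cytochrome c and the carriers of the inner and outer membrane, Cycs was higher under LW, at 1728 ± 161 scaled counts in LW eyes and 1556 ± 131 in SC eyes (SD, n = 12 each; log2 0.15, SE 0.042, adjusted p 0.0272). Cycs encodes somatic cytochrome c, which carries electrons from complex III to complex IV, and its difference lay on the other side of 0 from the medians of both.

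Of 18 regulators of mitochondrial biogenesis and DNA, 3 were higher and 1 was lower under LW, against 4.84% and 4.65% of all genes tested. Ppargc1b, a coactivator of nuclear genes for mitochondrial proteins, had 1803 ± 231 scaled counts in LW eyes and 1637 ± 138 in SC eyes (log2 0.13, SE 0.026, adjusted p 0.00255 by limma). Twnk, the helicase of mitochondrial DNA (0.15, adjusted p 0.0280), and Tfb2m, a factor of its transcription (0.17, adjusted p 0.0366), were higher as well, and Polg2, the accessory subunit of its polymerase, was lower (-0.16, adjusted p 0.0344). Ppargc1a did not pass the test (-0.029, adjusted p 0.782), nor did Nrf1 (-0.086, adjusted p 0.0994), Gabpa (0.11, adjusted p 0.214) or Yy1 (0.11, adjusted p 0.0742), whose products bind the motifs searched for. In the list of 7 genes of uncoupling and brown fat, Cidea, a lipid-droplet protein, was lower under LW (27.8 ± 8.05 scaled counts in LW eyes and 43.8 ± 10.5 in SC eyes, log2 -0.65, SE 0.16, adjusted p 0.0120), and Ucp1, the uncoupling protein of brown fat, was near the floor of the table at 4.51 scaled counts in LW eyes and 3.98 in SC eyes.

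Of the 78 genes of the mitochondrial ribosome, which translates the mitochondrially encoded subunits, 2 were higher under LW and none lower (median -0.0082). Of all genes tested 4.84% were higher and 4.65% lower, so neither count exceeded the background share. Mrps2 differed by 0.16 (adjusted p 0.0197 by limma) and Mrpl50 by 0.13 (adjusted p 0.0345), both components of that ribosome. Expected counts divide reads shared by near-identical sequences between their sources by a model, and several of these genes have processed pseudogenes, so small differences of single members can include reads from such copies.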

How the data were processed

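The libraries were strand-specific and made from mRNA of whole eyes. The authors mapped reads to the mouse genome (build GRCm38.p6; HISAT2 2.0.4, per the submitters' notes) and deposited expected counts estimated by RSEM, whose version is not given in the sources used here. Cells without a number (43565) were read as 0. Groups came from the sample labels. Values were scaled to the mean library size by TMM, with 30% of log ratios and 5% of mean levels trimmed. Genes whose scaled count reached 1 in 2 or more libraries (18233) entered limma (3.58.1, R 4.3.3, with trend and robust variance) on log2(scaled count + 1), where 12 group means left 12 residual degrees of freedom. Alternatives were other scalings, pseudocounts and filters, a replicate block, voom weights, and left-out libraries or times. The exact test enumerated 46656 relabellings within times. Members and lists were chosen with earlier results of these data known. Named were called members (1 is not reported here), the smallest p of each complex, tissue isoforms and partners, and some contrasting members and list genes chosen after their values were seen. Gene positions are those of the GRCm38 annotation. Scripts were tested on simulated data. Plots used matplotlib 3.10.9 in Python 3.11.15.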

Additional observations from a re-analysis of the deposited data

How the results depend on the processing

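For the season average, 11 members and 1730 of all genes were called, but 4 and 950 with the 2 h eyes left out and 3 and 1240 with the 14 h eyes left out, and lower calls, 10 in all, numbered 16 with column totals, 4 without 2 h and 3 without 14 h. The 1 higher call became 0 with column totals and without 2, 6, 14 or 18 h. Leaving out 1 library gave 3 to 22 calls, 3 to 20 of them lower and 0 to 2 higher, and a median of -0.0498 to -0.0196. At 2 h the single call became 0 with no filter and with voom weights. With 1 library left out it was 0 to 1 at 2, 18 and 22 h, 0 to 4 within LW and 1 to 2 within SC. Within LW it was 3 with column totals, 2 with the filter of mean CPM of at least 1, and 0 with no filter, voom weights or both liver-transcript libraries left out. Members that were not called changed sign: Cox4i2 with the 2 h eyes left out (7.77e-05) and with 1 library left out (-0.0751 to 0.0140, above 0 without SC 14 h replicate 1 or SC 18 h replicate 2), Cox6a2 without 6 h (0.00489) and 22 h (0.00905), Cox7a2 with 1 library left out (-0.0616 to 0.0024, above 0 without LW 18 h replicate 2), and Cox8a without 10 h (-0.0256), without 22 h (-0.00227) and with 1 library left out (-0.00944 to 0.0240). The cause was not tested. Of the other alternatives for single members 839 kept direction and side of the threshold, 164 lost and 25 gained a call. Same-numbered replicates did not deviate together over the 66 pairs of groups. Correlations ran from -0.213 to 0.258, with 13 over 0.1 and 12 under -0.1. For LW and SC of the same time they were all negative (-0.188 to -0.0427). The numbers were therefore not used as pairs, and a replicate block gave 13 calls, 12 of them lower. The planned edgeR quasi-likelihood alternative was not run. With 2 eyes per group, differences under about 10% rested on the pooled spread, and those at single times were the least precise.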
